A study of Homo sapiens with 2 samples.

Results

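Heat shock protein genes of the HSP70 (HSPA), HSP110 (HSPH), chaperonin (HSPD and HSPE), small heat shock protein (HSPB) and J-domain (DNAJA, DNAJB and DNAJC) families were compared between an RNA immunoprecipitation (IP) and its input. Both libraries came from Huh-7, a widely used human line derived from a liver carcinoma. Members were chosen by gene symbol, without HSPA5, the HSP70 of the endoplasmic reticulum, and 62 of the 25556 listed genes met this rule: 14 HSPA, 1 HSPH, 1 HSPD, 1 HSPE, 6 HSPB, 4 DNAJA, 10 DNAJB and 25 DNAJC genes. The series held 2 libraries, both labelled as wild-type cells grown in DMEM with fetal bovine serum: 1 IP made from 90% of the lysate, and 1 input made from the other 10% and labelled as untreated. The treatment label of the IP reads SPSF7, and the series design gives anti-SRSF7, raised against a serine/arginine-rich splicing factor. The protocol of both samples instead gives anti-YTHDF2, raised against a protein that reads m6A, used on poly(A) RNA. The files do not settle which antibody was used, so the libraries are called the IP and the input. Huh-7 is 1 line, and no label tells of a second culture, so that every difference below is one between 2 libraries with no replicate check and no p-value of its own.

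HSP70 proteins bind exposed hydrophobic stretches of other proteins in a cycle driven by ATP. J-domain proteins, also called HSP40, bring clients to HSP70 and start ATP hydrolysis, and HSP110 proteins release the ADP so that the cycle can begin again. HSP60 and HSP10 form the folding chamber of the mitochondrial matrix, and small heat shock proteins hold unfolded proteins without ATP. After heat or other protein damage, heat shock factor 1 (HSF1) binds heat shock elements, which are inverted repeats of GAA, upstream of the inducible genes, while others such as HSPA8 are made in unstressed cells too.

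The upstream sequences of 5 members are shown to give the genes described below their context, and no ratio was tested against them: HSPA1A and HSPA1B are near-identical copies, DNAJB1 is the HSP40 partner that responds to heat with them, HSPA8 is the most abundant member, and HSPE1 shares its promoter region with HSPD1. The sequences are the 250 bases before the RefSeq start site in GRCh38.p14, at chr6:31815293-31815542 on the plus strand for HSPA1A, chr6:31827488-31827737 on the plus strand for HSPA1B, chr19:14518398-14518647 on the minus strand for DNAJB1, chr11:123062137-123062386 on the minus strand for HSPA8 and chr2:197500129-197500378 on the plus strand for HSPE1. Capitals mark GAANNTTC and TTCNNGAA, the 2 forms of a pair of heat shock repeats, in the first 4 sequences. In HSPE1 they mark the 104 bases that also belong to the upstream window of HSPD1, which is read from the other strand.
HSPA1A: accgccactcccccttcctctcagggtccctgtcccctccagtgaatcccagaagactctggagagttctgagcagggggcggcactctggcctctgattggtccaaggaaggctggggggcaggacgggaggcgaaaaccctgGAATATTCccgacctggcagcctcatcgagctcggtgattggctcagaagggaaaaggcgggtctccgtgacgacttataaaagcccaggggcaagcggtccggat
HSPA1B: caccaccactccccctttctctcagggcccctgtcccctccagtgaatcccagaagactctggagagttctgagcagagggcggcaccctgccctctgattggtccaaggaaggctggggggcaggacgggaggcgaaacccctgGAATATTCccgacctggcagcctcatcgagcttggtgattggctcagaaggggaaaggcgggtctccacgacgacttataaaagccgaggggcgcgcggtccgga
DNAJB1: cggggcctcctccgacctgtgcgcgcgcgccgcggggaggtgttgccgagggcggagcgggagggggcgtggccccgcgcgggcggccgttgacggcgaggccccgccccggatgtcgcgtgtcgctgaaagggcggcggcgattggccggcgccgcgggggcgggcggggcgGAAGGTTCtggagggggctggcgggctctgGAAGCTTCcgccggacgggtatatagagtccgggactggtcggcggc
HSPA8: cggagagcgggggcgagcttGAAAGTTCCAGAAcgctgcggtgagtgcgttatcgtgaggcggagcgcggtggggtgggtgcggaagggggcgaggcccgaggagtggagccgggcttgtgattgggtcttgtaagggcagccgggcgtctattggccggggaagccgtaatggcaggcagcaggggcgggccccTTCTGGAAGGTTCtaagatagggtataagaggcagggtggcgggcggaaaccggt
HSPE1: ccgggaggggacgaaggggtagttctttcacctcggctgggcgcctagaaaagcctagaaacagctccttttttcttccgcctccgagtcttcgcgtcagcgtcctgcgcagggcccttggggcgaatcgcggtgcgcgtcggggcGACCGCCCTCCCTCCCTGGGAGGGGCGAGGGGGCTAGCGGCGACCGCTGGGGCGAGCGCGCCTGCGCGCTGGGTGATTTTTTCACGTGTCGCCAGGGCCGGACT
The windows of HSPA1A and HSPA1B were identical at 235 aligned bases (94%), and each held 1 motif, beginning 106 and 105 bases before the start. DNAJB1 held 2 motifs and HSPA8 held 4, which overlapped in pairs. The DNAJB1 window was picked from its 3 windows as one with the most motifs, so that choice favoured its count. Both motif forms read the same on either strand, and the forms can overlap each other. Of 55 members matched to the RefSeq table, 17 (30.9%) had a motif in at least 1 of their windows, against 14.0% of all 27305 genes in that table. By family these were 6 of 11 HSPA, 3 of 5 HSPB, 2 of 4 DNAJA, 4 of 10 DNAJB, 1 of 22 DNAJC genes and HSPD1. HSPA2, the member with the highest ratio below, had 0 motifs in its window, which is not shown. A match is a run of letters, not a tested binding site, and a window without one says only that these letters are not in it. The RefSeq starts of HSPD1 and HSPE1 used here lie 105 bases apart.

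Reads assigned to genes numbered 5897293 in the IP and 2782045 in the input, recovered from the deposited RPKM values (reads scaled to merged exon length and library size). Liver markers were abundant in both libraries, with ALB at 655 RPKM in the IP and 944 in the input, and AFP at 1613 and 2814. Blood and other markers fixed beside them were present too. The 6 erythroid markers summed to 698 RPKM in the IP and 1057 in the input, against 6043 and 7214 for the 10 liver markers. HBB led the erythroid markers at 467 RPKM in the IP and 738 in the input. In both libraries HBB was above APOB, APOA2, TTR, TF and HNF4A and below ALB, AFP, APOA1 and FGB. SERPINA1 was above HBB in the IP only. The 5 immune markers summed to 17.7 and 24.6. The 3 listed fibroblast markers summed to 1.49 and 1.92, and the 3 listed endothelial markers to 2.70 and 3.99. The part of other cells in the results below was not tested. Intervals are exact 95% intervals of the ratio of reads and cover counting error only. Of counts from 1 to 20, 77.3% were even in each library. Where reads were tallied in pairs the intervals would be too narrow, so calls lost with halved reads are named.

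As a group, heat shock genes lay in the middle of all genes. They took 0.902% of IP reads (53180 reads, interval 0.894 to 0.909%) and 0.799% of input reads (22240 reads, 0.789 to 0.810%), and HSPA8 alone held 23.2% of their IP reads and 19.2% of their input reads. A mean of at least 1 RPKM, the level required for a log2 ratio here, was reached by 50 members. Their median log2((IP + 1)/(input + 1)) was 0.13, against 0.14 for the 14057 genes at that level. On this scale 3 members, HSPA2, HSPA1B and DNAJB1, stood 2-fold or more above the input in the IP (6.0% of 50, against 11.3% of all genes), and 2 members, HSPB11 and DNAJC19, at least 2-fold lower (4.0%, against 8.25%). Both shares were under the background. This split of 3 higher and 2 lower became 1 and 4 after rescaling to protein-coding reads and 29 and 0 after rescaling to the same RPKM sum, when 5.90% and 56.4% of all genes were higher and 14.1% and 3.01% lower.

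Counting intervals separated more members from a ratio of 1. The interval lay above 1 for 17 of the 50 (34%, against 31.4% of all genes) and below 1 for 11 (22%, against 18.6%). Both shares were slightly above the background. With halved reads 16 lay above and 9 below, as DNAJC3 (0.970 to 1.80), DNAJC15 and HSPH1 then included 1. Of all 14057 genes, 3340 lay above and 1799 below with halved reads. The line at 1 depends on how the libraries are scaled: the median log2 ratio of all genes became 0 after centring, -0.16 after rescaling to protein-coding reads (every ratio times 0.763) and 1.11 after rescaling to the same RPKM sum (every ratio times 2.39). After the first rescaling, 9 members kept an interval above 1, namely HSPA1A, HSPA1B, HSPA2, HSPA8, DNAJB1, DNAJB6, DNAJC2, DNAJC5 and DNAJC21. After the second, 45 had one and 0 lay below 1. No share of all genes is given for these rescaled intervals, so their counts are not read as a trait of the members. The order of plain ratios does not depend on the scaling. The percentiles given below are those of the log2 ratio with pseudocount, as deposited, among the 14057 genes, and can shift with it.

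**Figure D1:**
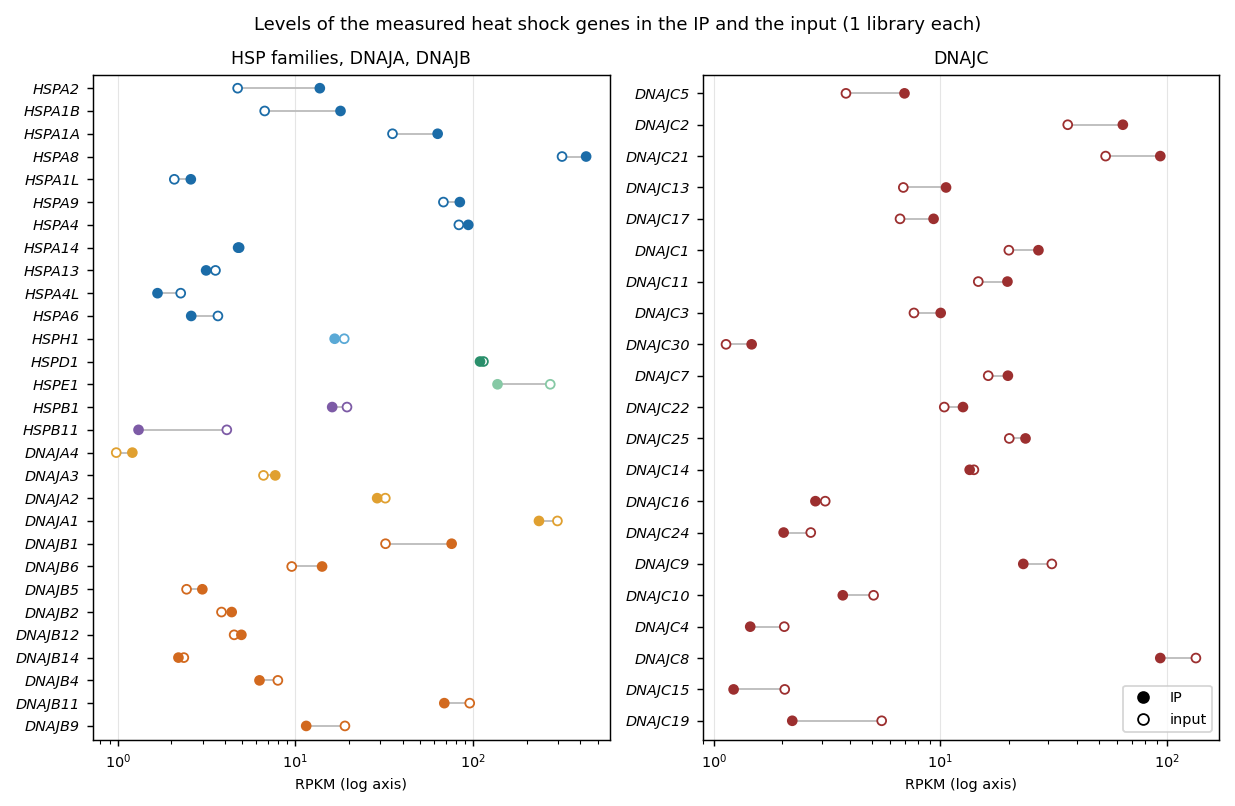
Levels of the 50 measured heat shock genes (mean 1 RPKM or more), on a log axis in RPKM, with the IP as filled and the input as open circles, 1 library each, ordered by ratio within each family. HSPA8 is highest in the IP (431 RPKM), and the widest gaps are those of HSPA2, HSPA1B and DNAJB1, with the IP on the right, and of HSPB11 and DNAJC19, with the input on the right.

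Among cytosolic HSP70 genes, 4 had intervals above 1 with halved reads too: HSPA8, HSPA1A, HSPA1B and HSPA2. HSPA8, the constitutive HSC70, stood at 431 RPKM in the IP and 316 RPKM in the input (12336 and 4260 reads). Its ratio was 1.37 (interval 1.32 to 1.41, percentile 67.0), and it carried 0 deposited peaks. HSPA1A, the main heat-inducible HSP70, stood at 63.1 RPKM in the IP and 35.1 RPKM in the input (894 and 235 reads), a ratio of 1.79 (1.55 to 2.08, percentile 83.8). HSPA1B, its copy in the same cluster on chromosome 6, stood at 17.9 RPKM in the IP and 6.71 RPKM in the input (266 and 47 reads), a ratio of 2.67 (1.95 to 3.72, percentile 93.7). Both copies were higher in the IP and their intervals overlap. HSPA1A was the higher of the pair in each library, but reads of near-identical copies can be assigned to either, so their separate levels are uncertain. HSPA1B also shares 920 exon bases on its strand with the clone-named AL671762.1, which had 247 IP and 48 input reads, about as many as HSPA1B itself.

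HSPA2, an HSP70 needed for sperm formation in mice and present in other tissues at lower levels, had the highest ratio of all 50 members. It stood at 13.7 RPKM in the IP and 4.73 RPKM in the input (467 and 76 reads), a ratio of 2.90 (2.27 to 3.74, percentile 94.5), and its interval remained above 2 with halved reads (2.05 to 4.20). It shares no exon bases with another listed gene. HSPA1L, the third gene of the chromosome 6 cluster, had 2.58 RPKM in the IP and 2.08 in the input (ratio 1.24, 0.682 to 2.36), and HSPA6, a strictly inducible HSP70, had 2.59 and 3.66 (0.708, 0.411 to 1.24). With 42 and 36 IP reads, their intervals include 1. HSPA14, which joins DNAJC2 in the ribosome-associated complex, stood at 4.82 RPKM in the IP and 4.76 RPKM in the input, a ratio of 1.01 (0.790 to 1.31).

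The organelle HSP70 members HSPA9 and HSPA13 and the 3 HSP110 genes had ratios from 0.740 to 1.24. HSPA9, the mitochondrial HSP70 mortalin, stood at 84.0 RPKM in the IP and 67.9 RPKM in the input, a ratio of 1.24 (1.17 to 1.31, percentile 58.7). HSPA13, a microsomal HSP70, was at 3.14 and 3.55 RPKM in the IP and the input (0.886, 0.599 to 1.33). For comparison, the gene left out by the rule, HSPA5, was at 530 RPKM in the IP and 281 in the input, a ratio of 1.89 (1.82 to 1.97). Of the HSP110 type, HSPA4 had 93.8 RPKM in the IP and 83.0 in the input (1.13, 1.06 to 1.21), which became less than 1 (0.862, interval below 1) after rescaling to protein-coding reads. HSPA4L had 1.68 RPKM in the IP and 2.26 in the input (0.740, 0.546 to 1.01), and HSPH1, the heat-inducible HSP105, 16.6 and 18.8 (0.883, 0.786 to 0.994). The interval of HSPH1 included 1 with halved reads (0.748 to 1.05). HSPA12B had 9 IP and 0 input reads, HSPA12A 0 and 2, and HSPA7, a pseudogene in RefSeq, 4 and 2. Of the 11 measured HSPA genes, 8 had a ratio above 1 as deposited, 4 after rescaling to protein-coding reads and 11 after rescaling to the same RPKM sum, and the family's median log2 ratio of 0.22 became -0.08 and 1.42.

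HSP60 and HSP10 work as 1 machine and are transcribed in opposite directions from a shared promoter region, but their RNAs differed in ratio. HSPD1, which encodes HSP60, stood at 109 RPKM in the IP and 114 RPKM in the input (2654 and 1309 reads), a ratio of 0.956 (0.895 to 1.02, percentile 38.4). HSPE1, which encodes HSP10, stood at 137 RPKM in the IP and 271 RPKM in the input (1472 and 1375 reads), a ratio of 0.505 (0.469 to 0.544, percentile 8.51). The intervals do not overlap, and after rescaling to the same RPKM sum HSPE1 lay above 1 while HSPD1 was still the higher of the pair. HSPE1 was 1.98-fold lower in the IP without the pseudocount, and its log2 ratio was -0.98 with it, just short of the 2-fold limit. It passed this limit after centring on the median of all genes (ratio 0.458) and after rescaling to protein-coding reads (0.385). HSPE1 shares 135 exon bases on the other strand with HSPD1, and 192 on its own strand with the readthrough gene HSPE1-MOB4. That readthrough gene had 1449 reads in the IP and 1363 in the input, about as many as HSPE1 itself. Its ratio of 0.502 (0.465 to 0.540) may rest on the same reads and is no separate check. Few reads were assigned to pseudogene copies: the 10 HSPD1 pseudogenes in the table held 34 IP and 14 input reads, and the 4 HSPE1 pseudogenes 24 and 4. No source used here says how reads matching both a gene and a copy were counted, so the effect of the copies was not tested.

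Small heat shock protein genes were sparsely covered, and 2 of 6 were measured. HSPB1, which encodes HSP27, stood at 16.1 RPKM in the IP and 19.5 RPKM in the input (154 and 88 reads), a ratio of 0.826 (0.631 to 1.09). HSPB11, a part of the intraflagellar transport complex also named IFT25, stood at 1.31 RPKM in the IP and 4.11 RPKM in the input (25 and 37 reads). It was 3.14-fold lower in the IP (1.84 to 5.44), the lowest of the 50 members at percentile 6.56, and its interval stayed below 1 with halved reads (0.142 to 0.690). HSPB8, a partner of BAG3 in selective autophagy, had 22 IP and 2 input reads, a ratio of 5.19 with an interval from 1.28 to 45.5, which included 1 with halved reads. HSPB6 had 10 IP and 2 input reads, HSPB7 2 and 2, and HSPB9 2 and 0, too few to tell a difference at this depth.

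**Figure D2:**
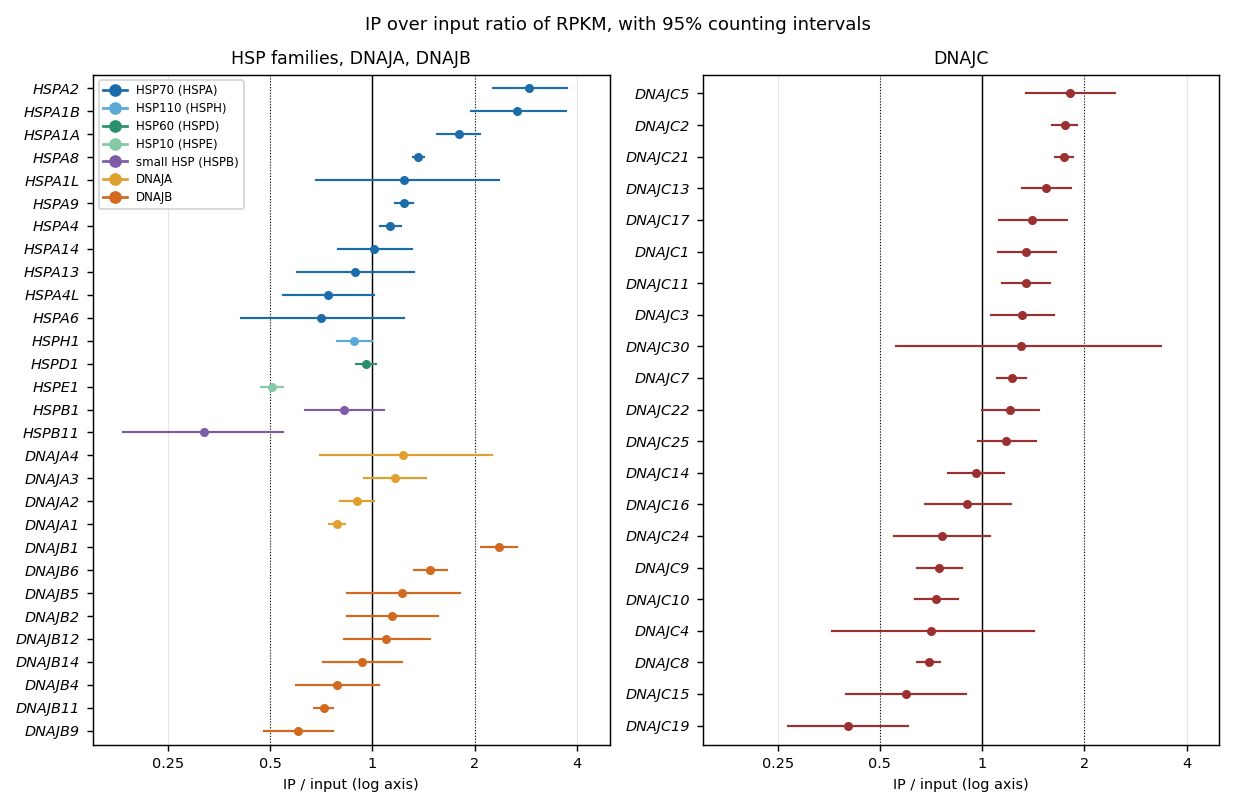
Ratio of IP to input RPKM for the same 50 genes on a log axis, with exact 95% counting intervals (1 library each); the solid line marks 1 and the dotted lines 0.5 and 2. DNAJB and DNAJC have intervals on both sides of 1. HSPA has 6 of 11 above (54.5%, against 31.4% of all genes) and 0 below (against 18.6%). The ratios run from HSPA2 at 2.90 to HSPB11 at 0.319, and genes with few reads, such as DNAJC30, have wide intervals.

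DNAJA genes encode the J-domain proteins closest to bacterial DnaJ and had ratios from 0.787 to 1.23. DNAJA1, the second most abundant member, stood at 234 RPKM in the IP and 297 RPKM in the input (3685 and 2208 reads), a ratio of 0.787 (0.747 to 0.830, percentile 25.4). DNAJA2, which like DNAJA1 serves cytosolic HSC70, had 28.8 RPKM in the IP and 32 in the input (0.900, 0.801 to 1.01). DNAJA3, the mitochondrial member, had 7.70 and 6.61 (1.16, 0.947 to 1.44), and DNAJA4 1.21 and 0.982 (1.23, 0.702 to 2.25). Only the interval of DNAJA1 excluded 1, and it turned to lie above 1 after rescaling to the same RPKM sum.

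DNAJB genes had 2 intervals above 1, those of DNAJB1 and DNAJB6, and 2 below, those of DNAJB9 and DNAJB11. Each side is 22.2% of the 9 measured genes, against 31.4% of all genes above and 18.6% below. DNAJB1, the classical HSP40, stood at 75.6 RPKM in the IP and 32.1 RPKM in the input (1627 and 326 reads), a ratio of 2.35 (2.09 to 2.66, percentile 92.8). DNAJB6, which keeps polyglutamine proteins from aggregating, stood at 14.1 RPKM in the IP and 9.53 RPKM in the input, a ratio of 1.48 (1.32 to 1.66). Lowest of the family, DNAJB9 (ERdj4), which delivers misfolded proteins for degradation from the endoplasmic reticulum, stood at 11.5 RPKM in the IP and 19.0 RPKM in the input, a ratio of 0.606 (0.480 to 0.765, percentile 14.5). DNAJB11 (ERdj3), an abundant lumenal partner of HSPA5, stood at 68.7 RPKM in the IP and 95.5 RPKM in the input, a ratio of 0.720 (0.674 to 0.768), and shares 451 exon bases on its strand with the clone-named AC068631.2 (ratio 0.713).
These 4 intervals excluded 1 also with halved reads, while both DNAJB9 and DNAJB11 stood above 1 after rescaling to the same RPKM sum. The intervals of the other 5 measured DNAJB genes included 1: DNAJB5 at 1.23, DNAJB2 at 1.14, DNAJB12 at 1.10, DNAJB14 at 0.932 and DNAJB4 at 0.788. DNAJB7 had 2 IP and 0 input reads. DNAJB1 shares 192 exon bases with TECR and MIR639 on the opposite strand, and no source used here says whether the authors' counting used strand; TECR had a ratio of 2.09 (1.78 to 2.47).

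DNAJC genes, whose proteins carry a J domain in otherwise unrelated chains, spread to both sides, with 9 of 21 intervals above 1 and 5 below 1. These are 42.9% and 23.8% of the family, against 31.4% and 18.6% of all genes. The most deeply covered was DNAJC21, which helps recycle factors of the large ribosomal subunit, at 93.5 RPKM in the IP and 53.6 RPKM in the input (5268 and 1426 reads), a ratio of 1.74 (1.64 to 1.85, percentile 82.5). DNAJC2, the ribosome-associated J protein that partners HSPA14 and also acts at chromatin, stood at 63.9 RPKM in the IP and 36.5 RPKM in the input (2527 and 681 reads), a ratio of 1.75 (1.61 to 1.91). Its interval lay above that of its partner HSPA14. DNAJC5, the cysteine string protein of secretory vesicles, had 6.95 RPKM in the IP and 3.83 in the input (1.81, 1.35 to 2.47), the endosomal DNAJC13 10.6 and 6.87 (1.54, 1.31 to 1.83), and DNAJC17, a splicing-associated protein, 9.34 and 6.64 (1.41, 1.12 to 1.77).
Lower in the IP as deposited were DNAJC19, a part of the motor that pulls proteins into mitochondria, and 4 others. DNAJC19 stood at 2.22 RPKM in the IP and 5.51 RPKM in the input (47 and 55 reads), which is 2.48-fold lower (1.65 to 3.74, percentile 8.07). DNAJC15, a related protein of the inner mitochondrial membrane, stood at 1.22 RPKM in the IP and 2.06 RPKM in the input, a ratio of 0.595 (0.397 to 0.896) whose interval included 1 with halved reads. The spliceosome-associated DNAJC8 stood at 93.5 RPKM in the IP and 134 RPKM in the input (0.696, 0.644 to 0.753), the lumenal reductase DNAJC10 at 3.71 and 5.08 (0.731, 0.633 to 0.846), and the histone chaperone DNAJC9 at 23.2 and 31.1 (0.748, 0.643 to 0.873). Of these 5, DNAJC8, DNAJC9, DNAJC10 and DNAJC15 stood above 1 after rescaling to the same RPKM sum, and DNAJC19 stayed below.
DNAJC22, of unknown role, stood at 12.6 RPKM in the IP and 10.4 RPKM in the input (1.21, 0.998 to 1.47). The other 10 measured DNAJC genes ran from DNAJC4 at 0.708 to DNAJC1 at 1.35, and 6 of these intervals included 1. DNAJC6, DNAJC18, DNAJC27 and DNAJC28 were below a mean of 1 RPKM, with at most 30 IP and 10 input reads each.

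Grouped by the place where their proteins work, a grouping made with the values known, members again lay on both sides. Of 9 members of the endoplasmic reticulum, 2 intervals lay above 1 (DNAJC1 and DNAJC3, the second not with halved reads) and 3 below (DNAJB9, DNAJB11 and DNAJC10), with a median log2 ratio of -0.11. Of 8 mitochondrial members, 2 lay above (HSPA9 and DNAJC11) and 3 below (HSPE1, DNAJC19 and, not with halved reads, DNAJC15), with a median of 0.06. Of 6 members linked to ribosomes or the nucleus, 3 lay above (DNAJC2, DNAJC17 and DNAJC21) and 2 below (DNAJC8 and DNAJC9), with a median of 0.23. Beside the median of 0.14 over all genes, 1 group lay slightly above and 2 below. Over all genes 31.4% of intervals lay above 1 and 18.6% below. The log2 ratio was weakly related to merged exon length across the 50 members (Spearman's rho 0.17) and across all 14057 genes (0.16); these points share both libraries, and the values are descriptions.

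Peaks, the IP-enriched regions in the authors' deposited table, come from the same libraries and are no independent check. Of 7643 peaks, 29 lay in 16 members, which is 25.8% of the 62 listed members against 12.0% of all listed genes, and 32% of the 50 measured members against 21.4% of all measured genes. A peak needs coverage, so the lowest genes could hardly carry one. Peaks fell in 3 HSPA, 3 DNAJB and 9 DNAJC genes and in HSPH1, and in 0 DNAJA, HSPB, HSPD or HSPE genes. DNAJB1 carried 5 and DNAJB6 carried 3, 7 genes had 2 and 7 had 1. In the authors' deposited table the folds of these peaks ran from 2.05 to 25.4, with a median of 2.67 against 2.71 over all peaks, and 21 of the 29 (72.4%, against 60.3% of all peaks) had a false discovery rate of at most 0.05. Along merged exons read from the 5′ end, 11 centres fell in the first part, 12 in the middle and 6 in the last when the length was cut into 3 equal parts (37.9%, 41.4% and 20.7%), close to the 40.1%, 38.1% and 21.7% of all peaks.

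The 3 members at least 2-fold higher in the IP all carried peaks. In the authors' deposited table, DNAJB1 had its strongest peak at chr19:14529490-14529765 with a fold of 3.20 and a p-value of 2.34e-11, near the 5′ end of the merged exons, and its other 4 had folds from 2.08 to 2.92. That first peak lies upstream of the RefSeq start whose window is shown above, which is 1 of 3 DNAJB1 windows in the RefSeq table, and it also covers exons of TECR and MIR639 on the opposite strand. HSPA2 had adjoining peaks at chr14:64541696-64542071 and chr14:64542246-64542746, with folds of 3.80 and 2.48 in the authors' deposited table. HSPA1B had 1 peak at chr6:31829512-31829937, with a fold of 2.97 in the authors' deposited table, in a stretch that also belongs to AL671762.1; its copy HSPA1A had 0.

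Of the 16 members with a peak, 13 had a ratio above 1. Over all measured genes 3013 carried a peak, and 167 of these had a ratio below 1. Peaks and ratios come from the same libraries. DNAJB6 had peaks with folds of 2.24, 2.05 and 2.17, and DNAJC2 had 2 with folds of 2.24 and 2.34, in the authors' deposited table. DNAJC13 and DNAJC22 each had 2 neighbouring peaks, DNAJC17 had 2 and the mitochondrial HSPA9 had 2 of 51 exonic bases each. Single peaks fell in DNAJB2, DNAJC7, DNAJC11, DNAJC14, DNAJC16 and DNAJC25.
Of 23 measured members with a ratio below 1, 3 carried a peak (13.0%, against 2.81% of all such genes): HSPH1, DNAJC14 and DNAJC16. This share rests on 3 genes, and the DNAJC16 peak has a false discovery rate of 0.0766 in the authors' deposited table. HSPH1, at 0.883 over the whole gene, had 2 peaks centred 6.70% and 10.6% of the way along its merged exons, with folds of 3.03 and 2.45 and p-values of 8.42e-05 and 0.000916 in the authors' deposited table. The peak of DNAJC14 spans 51 bases and has the highest fold of the 29, 25.4 in the authors' deposited table, which is 12.0 times the ratio of assigned reads of both libraries (2.12). Divided by the same ratio, the DNAJB1 folds of 3.20 and 2.08 became 1.51 and 0.983. No source used here says how folds were scaled, so none of the folds given here can be read as a level. HSPA8, DNAJA1, DNAJC21 and HSPA4, with 12336, 3685, 5268 and 2822 IP reads, carried 0 peaks.

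**Figure D3:**
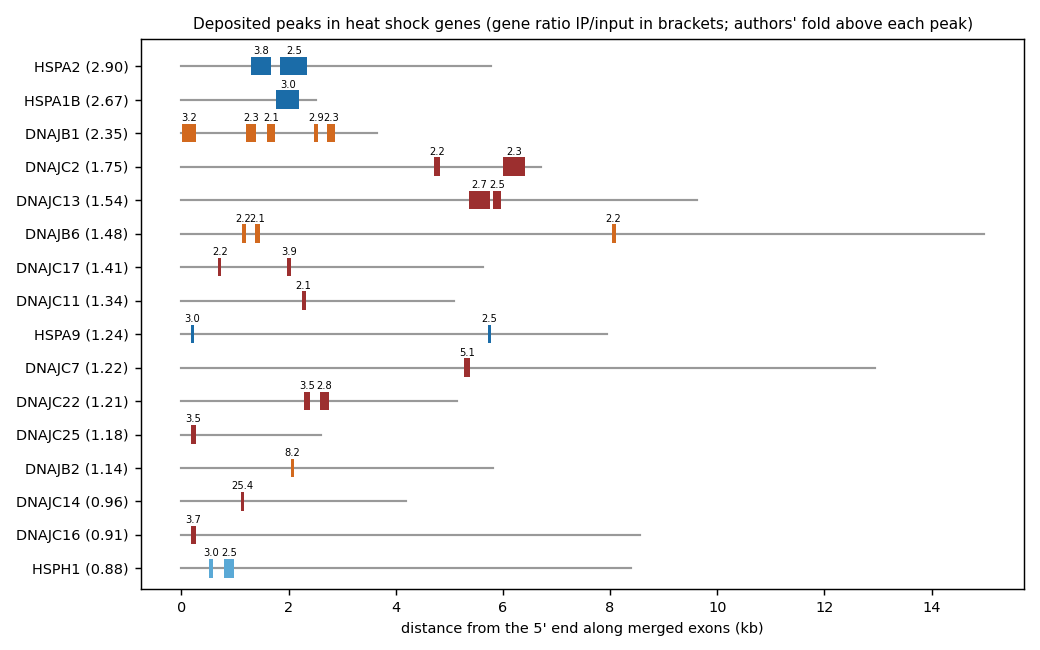
Deposited peaks in the 16 heat shock genes that carry one, drawn to scale along the merged exons from the 5′ end in kilobases; genes are ordered by their IP to input ratio, given in brackets, and the authors' fold stands above each peak. DNAJB1 has 5 peaks spread along its length, and HSPH1, the lowest gene at 0.88, has 2 near its 5′ end.

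Genes that work with these chaperones were taken from lists of HSP90 genes, cochaperones and other folding machines. The 4 HSP90 genes were higher in the IP as deposited: all 4 intervals lay above 1 and 3 genes passed the 2-fold limit, with 2.46% of IP reads against 0.954% of input reads. Of all genes, 31.4% had an interval above 1 and 11.3% passed that limit. HSP90AA1, the inducible cytosolic form, had 1555 RPKM in the IP and 572 in the input (2.72, 2.66 to 2.79), and HSP90AB1 1796 and 791 (2.27, 2.21 to 2.33). HSP90B1 had 2390 RPKM in the IP and 900 in the input (2.65, 2.60 to 2.71). The mitochondrial TRAP1 was far less abundant, at 12.4 RPKM in the IP and 6.80 in the input (1.82, 1.46 to 2.30). Of 15 regulators of HSP70, 7 intervals lay above 1 and 3 below (46.7% and 20%, against 31.4% and 18.6% of all genes). With halved reads 6 lay above and 1 below, when HSPBP1, BAG2 and BAG4 included 1. Highest with at least 100 reads were STIP1 and BAG6. STIP1 (HOP), which links HSP70 to HSP90, was at 73.0 RPKM in the IP and 35.5 in the input (2.06, 1.86 to 2.29), and BAG6 at 16.9 and 9.34 (1.81, 1.5 to 2.20). The lowest with at least 100 reads were BAG2 (0.666, 0.496 to 0.899) and BAG5 (0.764, 0.578 to 1.01). With 36 IP and 48 input reads, GRPEL2, which releases ADP from mitochondrial HSP70, was lower still (0.354, 0.223 to 0.557) and was the only regulator at least 2-fold lower.

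HSP90 cochaperones and the cytosolic chaperonin TRiC, with its helper prefoldin, held more genes that were lower in the IP as deposited. Of 10 cochaperones, 2 intervals lay above 1 and 4 below, from PPID at 31.2 RPKM in the IP and 71.0 in the input (0.439, 0.386 to 0.5) and CHORDC1 (0.487, 0.412 to 0.575) to FKBP4 (1.27, 1.14 to 1.42) and CDC37, which brings kinases to HSP90, at 464 and 223 RPKM (2.08, 1.98 to 2.19). Over all genes 31.4% of intervals lay above 1 and 18.6% below, against 20% and 40% of these cochaperones. Of 14 TRiC and prefoldin genes, 1 interval lay above 1 (7.14%) and 10 below (71.4%). The median log2 ratio of this list was -0.36, against 0.14 for all genes. CCT3 (1.15, 1.07 to 1.23) and PFDN1 (1.09, 0.889 to 1.35) were its highest and CCT2 (0.581, 0.514 to 0.657) and CCT4 (0.593, 0.524 to 0.671) its lowest with at least 100 reads, and on the same RPKM sum CCT2 and CCT4 would lie above 1. VBP1, with 18 IP and 78 input reads, had a ratio of 0.109 (0.0613 to 0.184).

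Heat shock transcription factors were low in both libraries. HSF1, the main driver of the heat shock response, stood at 5.18 RPKM in the IP and 2.57 RPKM in the input (162 and 38 reads), a ratio of 2.01 (1.41 to 2.94), with 2 peaks. HSF2 had 38 IP and 32 input reads (0.560, 0.341 to 0.926), an interval that included 1 with halved reads, and HSBP1, a small protein that binds HSF1, had 361 and 304 (0.560, 0.480 to 0.655). HSF4 had 10 IP and 0 input reads. Of 8 mitochondrial protease and disaggregase genes, 4 intervals lay above 1 and 2 below (50% and 25%, against 31.4% and 18.6% of all genes). With halved reads 3 lay above, as AFG3L2 then included 1. Ratios ran from CLPP (0.569, 0.402 to 0.808) and YME1L1 (0.709, 0.601 to 0.837) to SPG7 (1.89, 1.54 to 2.33) and LONP1. LONP1, the protease of the matrix, had 44.9 RPKM in the IP and 17.1 in the input (2.63, 2.29 to 3.03).

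**Figure D4:**
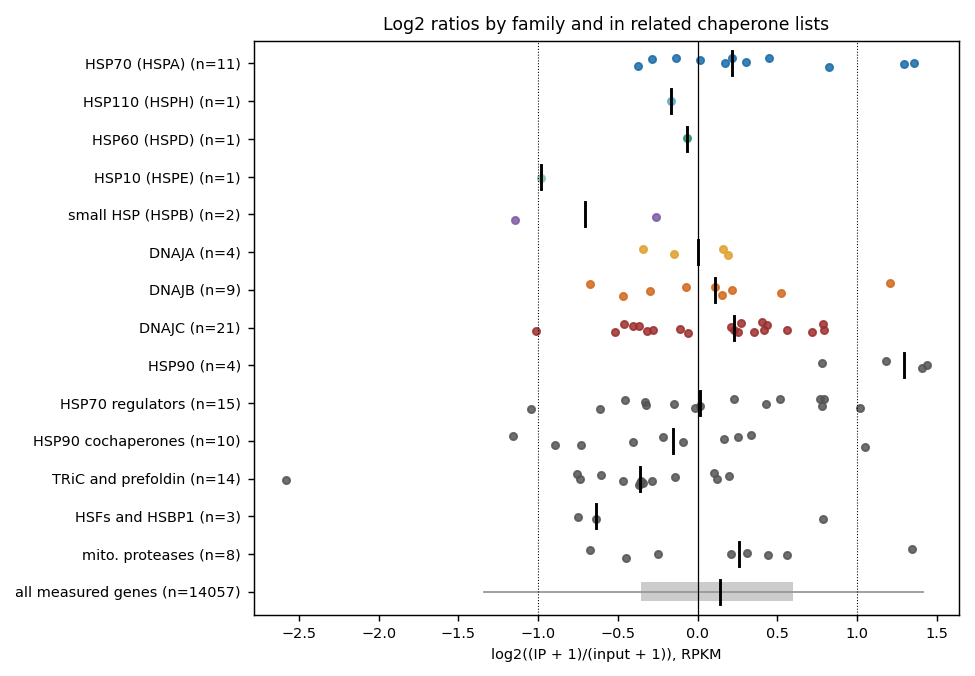
Log2((IP + 1)/(input + 1)) on RPKM for each measured gene, by heat shock family in colour and by related list in grey, with black bars at the medians (n genes in brackets, 1 library per group); the lowest row shows the median, the quartiles and the 5th to 95th percentiles of all 14057 genes. The medians of HSPA (0.22), DNAJB (0.11) and DNAJC (0.23) lie near that of all genes (0.14), and those of HSP90 (1.29) and of TRiC and prefoldin (-0.36) to either side.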

How the data were processed

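RNA from 1 IP and 1 input of Huh-7 cells was analysed. Per the labels, libraries were stranded and carried molecular identifiers (8 random bases); no source used here says whether counting used them. Per the submitters' processing notes reads were handled with Trimmomatic and STAR 2.5.3a. No source used here names the gene counter, the peak caller or the genome build; all 62 members lay on their RefSeq GRCh38.p14 chromosome. The gene values deposited by the authors are RPKM, recognised from their sum over gene length. They are whole multiples of 1 read within 0.01 read (100% of values), which gave the reads and the intervals (Clopper-Pearson based). The authors' deposited peak table lists for each peak its fold (a ratio), p-value, score and false discovery rate, called from 1 IP and 1 input.

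Log2 ratios used a pseudocount of 1 RPKM, which understates low genes, and a mean of at least 1 RPKM; no test was possible with 1 library per group. A peak was given to the gene with the most exonic bases on its strand (at least 1). HSPA, HSPB, HSPD, HSPE, HSPH and DNAJA genes were all described; of DNAJB and DNAJC, the 5 highest and 5 lowest ratios with at least 100 reads, those with at least 2 peaks and the most abundant; of other lists, the 2 highest and 2 lowest with at least 100 reads. Other genes were named after their values were seen. Members and lists were chosen with earlier results of these data known. The intervals were tested on simulated counts of independent reads only, so this says nothing about reads tallied in pairs. Computations ran in Python 3.11.15 with scipy 1.17.1, numpy 2.4.6 and pandas 2.3.3, and figures in matplotlib 3.10.9.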

Additional observations from a re-analysis of the deposited data

How the results depend on the processing

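No paired analysis was possible because each group has 1 library. The median log2 ratio of the members was 0.26 when 5 RPKM was required (32 members), -0.21 after rescaling to protein-coding reads and 1.10 after rescaling to the same RPKM sum; all genes gave 0.18, -0.16 and 1.11, so the members moved with them. Members at least 2-fold higher numbered 3 as deposited, 1 after the first rescaling, 29 after the second and 1 among members that share no exon bases on either strand (all genes 11.3%, 5.90%, 56.4% and 11.3%). Members at least 2-fold lower numbered 2 as deposited, 4 and 0 after these rescalings, 0 at 5 RPKM and 1 without shared exon bases on either strand (all genes 8.25%, 14.1%, 3.01%, 8.48% and 9.97%). Intervals above 1 numbered 9 and 45 after the rescalings, and intervals below 1 numbered 23 and 0, and 17 after centring. No share of all genes is given for these interval counts, so they are not read as a trait of the members. The cause was not tested beyond the construction of each setting. Other pseudocounts, no filter and leaving out genes that overlap on the same strand kept the counts within 1.5 times, and of 29 peaks 21 had a false discovery rate of at most 0.05. Halving the reads left 16 intervals above and 9 below 1, and 3340 and 1799 of those of all 14057 genes. Halving, centring and rescaling of the intervals, and the setting without overlap on either strand, were chosen after seeing the data. Depth limits 12 of the 62 members, with at most 30 IP reads each.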
